A study of Homo sapiens with 16 samples.

Results

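The step from primary to immortalized BJ fibroblasts was examined in cells kept at 3% oxygen. It rests on 4 of the 16 libraries of the series: 2 of the primary BJ cell line (replicates a and b) and 2 of the BJ hTERT+ cell line (replicates a and b). BJ is a human foreskin fibroblast line, and the BJ hTERT+ line differs from it by ectopic expression of the catalytic subunit of telomerase, with neither SV40 Large-T nor RAS added. All 4 cultures were grown in serum-containing medium for 6 passages at 3% oxygen, and the duplicates were plates kept in parallel, so the spread between them may be technical. Each stage is a single line derived under atmospheric oxygen, so the effect of TERT cannot be told apart from other differences between the 2 lines, such as time in culture. The same step at atmospheric oxygen, in 4 further libraries (2 primary and 2 immortalized), served for comparison.

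Telomerase adds telomeric repeats to chromosome ends, and its catalytic subunit is silent in most somatic cells, fibroblasts included. Without it, dividing fibroblasts shorten their telomeres and finally stop, with the CDK inhibitors of the CDKN2A and CDKN2B locus and the p53 pathway as the main brakes. Dermal fibroblasts are also the builders of the connective tissue matrix, including collagen fibrils and elastic fibres, and they can secrete cytokines when stressed or stimulated.

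The deposited values are TPM, a length-normalized share scaled to the same total in every library, which were summed here over the transcripts of each gene. TPM hold no read counts, so the depth behind each value is unknown. Of 19356 protein-coding genes, 12218 reached a group mean of 1 TPM in one line or the other and were tested. The comparison used log2(TPM + 0.5) with limma, fitted to all 16 libraries, and Benjamini-Hochberg adjustment over the 12218 genes. A log2 fold change is on this scale throughout and understates the change of genes near 1 TPM. A gene is said to have risen or fallen (called) at an adjusted p below 0.01 together with a log2 fold change beyond 1. The smallest two-sided p of an exact permutation test over 2 and 2 libraries is 0.333, and such tests were not run for single genes.

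TERT, on chromosome 5 from 1253262 to 1295183 of GRCh37, marked the 2 lines as labelled. It was at 0.03696 and 0.543 TPM in the primary and 143 and 128 TPM in the immortalized libraries at 3% oxygen (log2 fold change 7.505, standard error 0.36, adjusted p = 1.86e-07). In the immortalized libraries all of this signal was assigned to the full-length transcript TERT-201, which was listed at 0 in both primary libraries, where the traces lay on retained-intron transcripts. The values cannot separate introduced from endogenous TERT. TERT was the only called member among the 17 genes of telomerase and of the shelterin complex that caps telomeres (5.88% called, against 9.23% of all genes). POT1 (POT1 binds the single-stranded end) had a log2 fold change of 0.79 (adjusted p = 0.00145).

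The fibroblast label held for both lines. All 12 fibroblast markers were measured, and their summed level was 18314 and 17851 TPM in the primary and 16311 and 15850.2 TPM in the immortalized libraries. Of these, PDGFRA and PDGFRB rose and FBN1 fell. Markers of other cell types were low: the summed level was 36.6 to 66.1 TPM for 10 keratinocyte genes, 1.45 to 13.5 TPM for 7 endothelial genes, 1.83 to 3.18 TPM for 8 leukocyte genes, 8.97 to 15.2 TPM for 6 melanocyte genes and 3.76 to 5.41 TPM for 6 neural genes. KRT1, ERG, LYZ, CD3E, ITGAM, TYR, DCT and SOX10 were listed at 0 in all 4 libraries. In the endothelial list the sum followed TEK, a receptor of angiopoietins, which fell from 10.1 and 10.3 to 0.191 and 0.132 TPM, while CDH5, KDR and VWF stayed below 0.12 TPM. The 7 smooth muscle and pericyte genes summed to 93.9 and 73.8 TPM in the primary and 133 and 127 TPM in the immortalized libraries, and there ACTG2 rose while NOTCH3 and DES fell. In bulk RNA, fewer cells of a type and less RNA per cell cannot be told apart.

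Of the 12218 genes, 1128 (9.23%) were called, 512 (4.19%) higher and 616 (5.04%) lower in immortalized cells. The median log2 fold change was 1.70 among the rises and -1.58 among the falls, against -0.06 over all genes tested, and 195 rises and 215 falls exceeded 4-fold on this scale (a log2 fold change beyond 2). The number of called genes was 738 without immortalized replicate a and 743 without immortalized replicate b. In 8836 genes (72.3%) the 2 groups did not overlap, so non-overlap by itself says little. Between replicates, 3.26% of expressed genes differed more than 2-fold in primary and 1.83% in immortalized cells. Mitochondrially encoded genes took 2.59% and 4.33% of the TPM in the primary libraries and 0.851% and 2.60% in the immortalized libraries, and any part of this in the results was not tested.

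The largest rise after TERT was in MSR1, a scavenger receptor known from macrophages, from 2.56 and 0.286 to 228 and 228 TPM (log2 fold change 7.203, adjusted p = 5.67e-06). C3, the central complement component, rose from 0.896 and 1.28 to 120.3 and 117 TPM (6.24). VAT1L was at 0.0898 and 0.136 TPM in primary and 35.8 and 32.4 TPM in immortalized cells (5.82). RGCC, a cell cycle regulator that responds to complement, was listed at 0 in primary replicate b and at 2.35 TPM in replicate a, against 49.2 and 43.9 TPM after the step (5.298, adjusted p = 0.000297). CPA4, a secreted carboxypeptidase, rose from 4.35 and 4.09 to 187 and 179 TPM (5.28), and DENND2A, an exchange factor of Rab GTPases, from 0.794 and 0.765 to 32.9 and 32.96 TPM (4.71). The other members of the 10 largest rises were CA9, OAS1 and IL24, described with their groups. These 10 were chosen for a large fold change and no overlap of the groups, so their separation follows from the choice.

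The falls reached further. ELN, on chromosome 7 from 73442119 to 73484237 of GRCh37, which encodes the elastin precursor, went from 350.4 and 278 TPM to 0.254 and 0.216 TPM, a log2 fold change of -8.73 (standard error 0.23, adjusted p = 2.74e-09). STMN2, a microtubule-destabilizing protein best known in neurons, fell from 115 and 105 to 0.449 and 0.516 TPM (-6.81). ALDH1A1, which makes retinoic acid from retinal, was at 50.8 and 57.8 TPM in primary cells and listed at 0 in both immortalized libraries. KRT19 and KRT7, keratins of simple epithelia, fell from 192 and 143 to 1.68 and 0.647 TPM (-6.72) and from 381 and 391 to 10.9 and 7.35 TPM (-5.35). ANXA3, a calcium-dependent membrane-binding protein, fell from 62.6 and 65.4 to 0.244 and 0.613 TPM (-6.15), and CKB, the brain-type creatine kinase, from 35.4 and 59.9 to 0.725 and 0.307 TPM (-5.55). CRYAB, a small heat shock protein, fell from 148 and 164 to 2.297 and 4.37 TPM (-5.404). POSTN is described with the matrix genes. OPCML, a cell adhesion molecule, was at 21.5 and 25.1 TPM before the step and listed at 0 after it. Adjusted p-values of the 10 falls from limma were between 1.56e-09 and 6.09e-05.

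**Figure D1:**
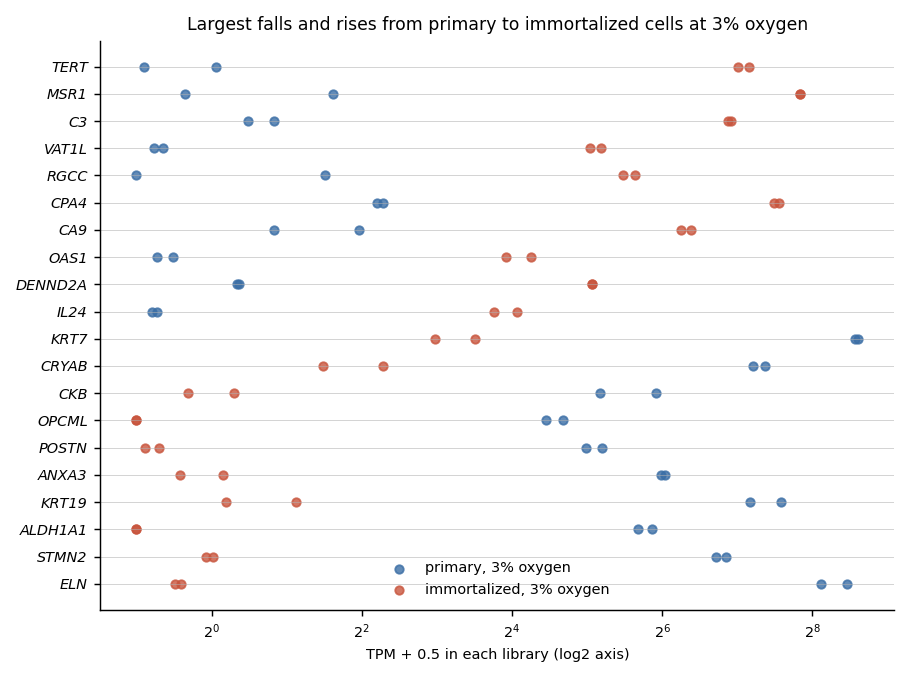
TPM + 0.5 on a log2 axis in each library at 3% oxygen for the 10 largest rises and the 10 largest falls, with 1 point per library, primary in blue and immortalized in red. The 2 colours are separated in every gene because genes whose groups overlap were not eligible. ELN spans the widest gap, from 350 and 278 TPM down to 0.254 and 0.216 TPM.

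Among 11 tested CDK inhibitors and related brakes on division, 3 fell and 1 rose (36.4% called), with 2 to 3 calls when 1 library was left out. The falls were CDKN2A, CDKN2B and CDKN2D. CDKN2A, on chromosome 9 from 21967751 to 21995300 of GRCh37, which encodes p16INK4a and ARF, was at 0.461 and 2.05 TPM in primary cells and listed at 0 in both immortalized libraries. The primary signal was spread over 4 transcripts, the highest of them CDKN2A-212 at 1.501 TPM in replicate b. Its neighbour CDKN2B (p15INK4b) was at 2.16 and 2.49 TPM and then also listed at 0. On either side of this pair, MTAP, an enzyme of methionine salvage, was at 47.3 and 51.6 TPM before and 63.1 and 65.3 TPM after the step, and DMRTA1 was listed at 0 in both primary libraries and at 2.68 and 2.396 TPM after it (these neighbours were chosen after their values were seen). CDKN2D (p19INK4d) fell from 47.3 and 39.7 to 19.6 and 15.5 TPM (log2 fold change -1.29, adjusted p = 0.000983). CDKN1A (p21), the main CDK inhibitor downstream of p53, had a log2 fold change of -0.62 and was not called. The CDKN2A call was lost without immortalized replicate a (adjusted p = 0.0395) or b (0.0385), its level without primary replicate b was below the 1 TPM filter, and that of CDKN2D was lost without primary replicate a (0.0123) or immortalized replicate b (0.0138).

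None of 22 tested p53 target genes passed the thresholds in limma (median log2 fold change -0.16). The largest change was in MDM2, the p53 antagonist, at 37.7 and 27.8 TPM in primary and 315 and 32.7 TPM in immortalized libraries (adjusted p = 0.243). Most of the high value in immortalized replicate a was 278 TPM assigned to the retained-intron transcript MDM2-215, which was at 0.233 TPM in replicate b. The mitotic list also had no call among 30 genes, and 27 of the 30 were lower, with a median of -0.42 against -0.06 for all genes. Among the tested genes outside chromosome 10, 55.8% were lower. KNL1, a kinetochore scaffold, was at 129 and 50.4 TPM and then 27.6 and 24.1 TPM (log2 fold change -1.63, adjusted p = 0.0193). With a library left out, 1 member was called without primary replicate a and 1 without primary replicate b, and 0 without either immortalized library. AURKB, UBE2C and CCNA2, all needed for mitosis, had adjusted p-values of 0.00125, 0.00714 and 0.00651 but log2 fold changes of -0.87, -0.79 and -0.59, smaller than the threshold. Among 31 DNA replication genes, 26 were lower and 2 fell (6.45% called, against 9.23% of all genes). MCM10, a replication initiation factor, fell from 30.02 and 35.3 to 10.97 and 11.4 TPM (-1.503), and ORC6, a subunit of the origin recognition complex, from 72.96 and 86.6 to 35.7 and 38.9 TPM (-1.08). The call of ORC6 was lost without primary replicate b, where its log2 fold change was -0.96.

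Genes of the extracellular matrix were the group with most falls. Of 41 tested matrix glycoproteins and proteoglycans, 17 fell and 3 rose (48.8% called, against 9.23% of all genes), and the median log2 fold change was -0.81. With 1 library left out, 17 or 18 members were called. In elastic fibres, elastin is laid down on a scaffold of fibrillin microfibrils. Beside ELN, FBN2 (fibrillin-2) fell from 9.49 and 11.3 to 0 and 0.0162 TPM, with 1 library listed at 0, and EMILIN2 from 23.7 and 16.7 to 0.0218 and 0.05005 TPM (-5.25). MFAP5, a microfibril-associated glycoprotein, fell from 132 and 139 to 7.58 and 5.99 TPM (-4.23), and MFAP4 from 161 and 146 to 48.7 and 54.5 TPM (-1.57). FBN1 fell from 443 and 498 to 268 and 198 TPM, close to the threshold at -1.03, and its call was lost without primary replicate b (-0.94), without immortalized replicate b (-0.81) and under both other scalings (-0.97 in each). LTBP2, which binds microfibrils, fell from 87.5 and 75.3 to 18.2 and 17.2 TPM (-2.16).

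Other elastic fibre genes went the other way or were not called. EFEMP1 (fibulin-3) rose from 29.9 and 33.5 to 103 and 101 TPM (1.67). LTBP1, which stores latent TGF-beta in the matrix, rose from 30.6 and 28.8 to 104 and 87.7 TPM (1.67, adjusted p = 0.00159), a call that was lost when primary replicate a, primary replicate b or immortalized replicate a was left out (0.00952 to 0.0185 over the 4 libraries). MATN2 was at the threshold with 1.01 and was called without primary replicate b but not without the other 3 libraries (0.00601 to 0.0267). FBLN5, needed for elastic fibre assembly, was at 235 and 258 TPM and then 123 and 135 TPM, a log2 fold change of -0.93 that fell short of the threshold.

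Small leucine-rich proteoglycans, which bind collagen fibrils, included falls and genes that were not called. PODN fell from 89.5 and 75.1 to 1.75 and 1.59 TPM (-5.25), FMOD from 11.9 and 12.5 to 1.03 and 0.871 TPM (-3.13), PRELP from 10.03 and 8.96 to 0.615 and 0.779 TPM (-3.06), ASPN from 5.41 and 3.57 to 0.824 and 1.28 TPM (-1.68) and BGN from 342 and 259 to 135 and 139 TPM (-1.12). DCN, at 408 and 375 TPM and then 617 and 591 TPM, and LUM, at 1692 and 1589 TPM and then 1777 and 1766 TPM, were not called. POSTN (periostin) fell from 31.1 and 36.2 to 0.0417 and 0.113 TPM (-5.88), MGP, an inhibitor of calcification, from 23.95 and 54.7 to 1.42 and 0.112 TPM (-5.08), and COMP from 5.08 and 4.81 to 0.0302 and 0 TPM. FN1 (fibronectin), at levels close to SPARC, was at 3137 and 3688 TPM and then 2741 and 2356 TPM (-0.42, adjusted p = 0.303).

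Of 25 tested collagen chains, 5 fell and none rose (20% called). The basement membrane chains COL4A1 and COL4A2, which share a head-to-head promoter, fell from 339 and 334 to 68.7 and 68.5 TPM (-2.28) and from 437 and 393 to 151 and 154 TPM (-1.44). HSPG2 (perlecan), also of basement membranes, fell from 96.2 and 87.7 to 26.8 and 22.3 TPM (-1.89), while the laminin chains LAMB1 and LAMC1 were not called at 0.199 and 0.13. COL8A2 fell from 6.68 and 4.92 to 0.925 and 0.809 TPM (-2.19). COL5A1, which sets fibril diameter, fell from 430.2 and 339 to 139.6 and 132 TPM (-1.49), although its adjusted p was 0.0145 to 0.0391 with any 1 of the 4 libraries left out. The fibrillar chains COL1A1, COL1A2 and COL3A1 were not called, with log2 fold changes of -0.67, 0.03 and -0.41, and under quantile normalization that of COL1A2 was -0.10. The chain count was 3 without primary replicate a or immortalized replicate b.

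Of 18 enzymes that process collagen, 3 fell and 1 rose (22.2% called, against 9.23% of all genes). P4HA3, a prolyl hydroxylase subunit, fell from 28.2 and 25.8 to 2.94 and 2.87 TPM (-3.01). ADAMTS2, the procollagen N-proteinase, fell from 68.1 and 64.5 to 8.79 and 9.52 TPM (-2.79). LOX, which cross-links collagen and elastin, fell from 722 and 758 to 339 and 324 TPM (-1.16), and its relative LOXL4 rose from 32.5 and 25.4 to 108 and 104 TPM (1.86). SERPINH1, the collagen chaperone HSP47, was at 262 and 238 TPM and then 295 and 278 TPM.

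Among 24 metalloproteinases and their inhibitors, 9 fell and 3 rose (50% called, against 9.23% of all genes). The falls included both proteases and inhibitors. Of the proteases, MMP3 (stromelysin-1) fell from 215 and 288 to 49.97 and 56.5 TPM (-2.22), MMP1 (interstitial collagenase) from 970.3 and 709 to 252 and 229.9 TPM (-1.78), and ADAM12 from 17.9 and 23.6 to 2.73 and 2.64 TPM (-2.73). Of the inhibitors, TIMP3 fell from 2828 and 2673 to 755 and 747 TPM (-1.87) and TIMP1 from 1360.2 and 1127 to 610.3 and 597 TPM (-1.04). Without immortalized replicate b, no pair among MMP1, TIMP3 and TIMP1 stayed called. RECK, a membrane-anchored inhibitor, rose from 68.2 and 70.7 to 147 and 137 TPM (1.03). Its log2 fold change was 0.98 to 1.07 with 1 library left out and under the threshold without primary replicate a or immortalized replicate a. ADAMTS4, an aggrecanase, fell from 7.15 and 3.83 to 0.654 and 0.144 TPM (-2.74), a call lost without primary replicate a or immortalized replicate b (0.00291 to 0.0144). ADAMTS1 (1.46) and TIMP4 (1.28) rose, but neither was called with any library left out (0.0356 to 0.0452 and 0.0316 to 0.0613). The list count was 4 without primary replicate a, immortalized replicate a or immortalized replicate b, and 10 without primary replicate b.

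TGF-beta and BMP signalling, which drives matrix synthesis in fibroblasts, had the lowest median of the 25 lists (-0.95), with 8 falls and 5 rises among 30 tested genes (43.3% called). Among the ligands, INHBA, the activin A subunit, fell from 5.98 and 6.45 to 0.5802 and 0.452 TPM (-2.73), though with any library left out its adjusted p was 0.0139 to 0.0185. INHBB, the activin B subunit, rose from 1.58 and 1.73 to 11.4 and 10.7 TPM (2.42), and BMP4 from 4.23 and 5.28 to 20.2 and 20.1 TPM (1.98). GDF5 and the BMP antagonist CHRDL1 also rose. BMP6 fell from 1.49 and 1.06 to 0.122 and 0.0897 TPM (-1.54). TGFB1 was at 65.9 and 49.4 TPM and then 57.7 and 54.3 TPM. Of the antagonists that bind activins, FST (follistatin) rose from 12.002 and 9.99 to 276 and 244 TPM (4.505, standard error 0.26, adjusted p = 6.58e-07), whereas FSTL3 fell from 75.4 and 62.7 to 21.1 and 19.3 TPM (-1.75). The receptors TGFBR1 and TGFBR2 were not called (0.29 and 0.05). Among intracellular mediators and targets, SMAD9 fell from 14.7 and 13.2 to 2.29 and 2.13 TPM (-2.42), the inhibitory SMAD6 from 2.47 and 1.34 to 0.363 and 0.106 TPM (-1.69), ID2 from 147 and 120.0 to 58.7 and 57.8 TPM (-1.18), ID4 from 3.91 and 3.26 to 1.03 and 1.08 TPM (-1.39) and TGFBI from 463 and 439 to 195 and 199 TPM (-1.19). The classical target CCN2 was at 571 and 721 TPM and then 225 and 224 TPM and did not pass (adjusted p = 0.118).

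Of 19 contractile and myofibroblast genes, 3 rose and 2 fell (26.3% called). ACTG2, the enteric smooth muscle actin, rose from 4.14 and 3.43 to 73.4 and 73.7 TPM (4.12, adjusted p = 1.18e-07), whereas ACTA2, the usual myofibroblast actin, was at 61.2 and 99.3 TPM and then 64.5 and 76.7 TPM (adjusted p = 0.805). PALLD (palladin), an actin-bundling protein, rose from 48.5 and 50.4 to 137 and 139 TPM (1.47). MYOCD (myocardin), a coactivator of smooth muscle genes, rose from 7.44 and 10.96 to 21.4 and 20.6 TPM (1.17), but its adjusted p was 0.0112 to 0.0739 with any library left out. ITGA8 fell from 11.5 and 10.02 to 2.08 and 1.22 TPM (-2.42), and DES (desmin), low before the step at 1.94 and 1.44 TPM, fell to 0.0309 and 0.224 TPM (-1.81).

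Cytokines and chemokines had the highest median of all lists, 1.90, with 6 rises and no fall among 17 tested genes (35.3% called). IL24 rose from 0.105 and 0.0761 to 16.3 and 13.1 TPM (4.68, adjusted p = 2.52e-05). IL6 rose from 8.38 and 6.42 to 149 and 118 TPM (4.09, adjusted p = 0.00154), IL1B from 2.19 and 1.22 to 36.6 and 28.1 TPM (3.92, 0.00247) and CXCL8, the neutrophil chemokine IL-8, from 11.9 and 4.97 to 98.02 and 73.3 TPM (3.37, 0.00611). CCL2, a monocyte chemokine already abundant in primary cells, rose from 132 and 125 to 609 and 526 TPM (2.14), and CSF1, the macrophage growth factor, from 12.2 and 10.5 to 51.5 and 48.2 TPM (2.09, 5.24e-05). IL24 kept its call with each library left out, but CCL2 and CSF1 were not both called in any of these fits. CXCL12 was at 406 and 325 TPM and then 449.7 and 411 TPM and was not called. With 1 library left out, 3 members were called without primary replicate a, and 2 without each of the other libraries. IL1B (0.0113 to 0.0233) and CXCL8 (0.0132 to 0.05500) were then never called, and IL6 only without primary replicate a (0.00981 to 0.01601). The log2 fold change stayed between 3.599 and 4.24 for IL1B, between 2.78 and 3.96 for CXCL8 and between 3.91 and 4.27 for IL6.

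All 24 tested interferon-stimulated genes had a log2 fold change above 0, with a median of 1.80, and 10 rose (41.7% called). OAS1, an activator of RNase L, rose from 0.103 and 0.199 to 14.6 and 18.6 TPM (4.71, adjusted p = 0.00481), and OAS2 from 0.855 and 0.8604 to 16.01 and 10.9 TPM (3.34). IFIT1, which binds foreign RNA, rose from 6.85 and 8.51 to 113 and 104 TPM (3.74) and IFIT3 from 12.8 and 14.3 to 93.7 and 87.5 TPM (2.697). BST2 (tetherin) rose from 0.209 and 0.212 to 6.35 and 4.597 TPM (3.06) and the RNA sensor IFIH1 from 0.1796 and 0.105 to 2.58 and 2.61 TPM (2.27). The transcription factors IRF1, IRF9 and STAT2 rose less, with log2 fold changes of 1.56, 1.48 and 1.08. MX1, a standard interferon marker, was at 8.74 and 5.57 TPM and then 11.3 and 12.7 TPM (adjusted p = 0.528), USP18 at 8.802 and 6.92 TPM and then 9.48 and 7.64 TPM, and RSAD2 stayed below 0.4 TPM. IFNB1, the interferon gene of fibroblasts, was listed at 0 in all 4 libraries. These calls lie near the threshold: 3 members were called without primary replicate a, 1 without primary replicate b, 0 without immortalized replicate a and 1 without immortalized replicate b. OAS1 (0.0256 to 0.0349), OAS2 (0.0215 to 0.0424) and IFIT1 (0.0268 to 0.0377) were called in none of these 4 fits, while the log2 fold change of OAS1 stayed between 4.54 and 4.88 and that of IFIT1 between 3.595 and 3.89. With the libraries of metastasizing cells at 3% oxygen left out of the shared spread, 17 members were called.

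Interferon-stimulated genes are known to carry an interferon-stimulated response element, searched here as GAAANNGAAA on either strand in RefSeq promoters of GRCh38.p14 (250 bases before to 50 after the gene start). The promoter stretches of called members with the element show its arrangement, with each match in capitals and 20 bases on either side. The stretches lie at chr10:89392487-89392549 (plus strand), chr10:89327821-89327904 (plus strand) and chr19:17405725-17405780 (minus strand).
IFIT1: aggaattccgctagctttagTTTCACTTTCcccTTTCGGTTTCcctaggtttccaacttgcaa
IFIT3: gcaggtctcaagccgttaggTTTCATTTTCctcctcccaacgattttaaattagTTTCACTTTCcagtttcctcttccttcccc
BST2: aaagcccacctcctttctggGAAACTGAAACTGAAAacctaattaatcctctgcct
IFIT1 and IFIT3 each hold 2 separate matches and BST2 holds 2 that overlap. Of the 18 tested interferon-stimulated genes with a promoter in the table, 12 (66.7%) hold the element, and of the 8 called ones 4, with IFIH1 as the fourth. OAS1, IRF1, IRF9 and STAT2 have no match in this window. Over the genes tested in the step, 25 of 400 risen genes with a promoter (6.25%), 7 of 502 fallen genes (1.39%) and 281 of all 9937 (2.83%) hold it, against 3.65% of all promoters in the table.

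Other elements were spread more evenly. The CCAAT box (CCAAT) is in 34.8% of the promoters of risen, 33.7% of fallen and 36.7% of all tested genes, and in 35.7% of all promoters. The CHR element of late cell cycle genes (TTTGAA) is in 12.5%, 12.5%, 9.86% and 15.4% in the same order. The E2F core, searched as TTCCCGC and also as the variant TTGGCGC, the variant TTCGCGC and the variant TTGCCGC, is in 14.2%, 15.9%, 20.9% and 13.1%, and the core of the hypoxia response element (ACGTG or GCGTG) in 50.8%, 57.4%, 63.5% and 48.4%. The CArG box of serum response factor is in 1.5%, 1.59%, 1.07% and 1.29%. Matches are letters in a window and were not tested.

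In the complement and coagulation list, 4 of 24 tested genes rose and 3 fell (29.2% called). Beside C3, C1QTNF1 rose from 4.21 and 3.13 to 21.4 and 17.7 TPM (2.27), PLAU, the urokinase that activates plasminogen, from 89.7 and 68.3 to 279.7 and 271 TPM (1.81), and C7 was listed at 0 in primary replicate b, at 0.0820 TPM in replicate a, and at 0.758 and 1.69 TPM after the step. C7 thus lay close to the 1 TPM filter, and below it in immortalized replicate a. The falls were TFPI2, SERPING1 and A2M. TFPI2 fell from 116 and 75.5 to 11.8 and 9.91 TPM (-3.06), SERPING1, the C1 inhibitor, from 146 and 131 to 46.8 and 45.7 TPM (-1.57), and A2M from 27.2 and 28.7 to 7.61 and 6.55 TPM (-1.91). The call of A2M was lost with any library left out (0.0192 to 0.0293). In antigen presentation 1 of 9 tested genes rose (11.1% called, against 9.23% of all genes). It was PSMB9 of the immunoproteasome, from 0.212 and 0.457 to 4.26 and 4.03 TPM (2.49). B2M was at 2264 and 2261 TPM and then 4074 and 3941 TPM (0.82, under the fold threshold).

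Growth factor signalling changed in both directions, with 7 rises and 5 falls among 37 tested ligands, receptors and feedback genes (32.4% called). Among the ligands, TGFA, a ligand of the EGF receptor, fell from 5.49 and 5.07 TPM to 0.00760 TPM in immortalized replicate a and a listed 0 in replicate b. AREG, another ligand of that receptor, rose from 4.14 and 2.69 to 23.4 and 20.5 TPM (2.54) but was not called with any library left out (0.01605 to 0.0387). HGF, the MET ligand, rose from 3.38 and 0.966 to 17.8 and 16.1 TPM (2.87), a call that held only without primary replicate a (0.00118 to 0.0162). Among receptors, PDGFRA rose from 41.7 and 26.8 to 112 and 106 TPM (1.69) and PDGFRB from 50.1 and 52.4 to 118 and 115 TPM (1.18), while EPHB2 fell from 5.42 and 4.98 to 0.341 and 0.717 TPM (-2.49) and NTRK2 from 2.06 and 1.93 to 0.0907 and 0.0438 TPM (-2.14). The ERK phosphatase DUSP4 rose from 7.61 and 6.48 to 53.6 and 46.6 TPM (2.75), and SPRY4, a feedback inhibitor of receptor tyrosine kinases, fell from 51.8 and 42.5 to 20.2 and 19.3 TPM (-1.23). The count was 8 without primary replicate b or immortalized replicate b.

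In the IGF system 3 of 18 tested genes fell and 2 rose (27.8% called). IGF2, a fetal growth factor from an imprinted locus, fell from 37.2 and 39.8 to 4.71 and 4.41 TPM (-2.95, adjusted p = 4.07e-06), and IGFBP2, an IGF-binding protein, from 135 and 80.9 to 18.9 and 14.7 TPM (-2.61). IGFBP3, the main IGF carrier of serum, fell from 2486 and 2970.3 to 878 and 909 TPM (-1.604). IGF2BP3, an RNA-binding protein of fetal tissues, rose from 16.4 and 11.1 to 45.8 and 43.1 TPM (1.68), and PAPPA, the protease that cleaves IGFBPs, from 5.63 and 5.34 to 16.1 and 11.7 TPM (1.25). The calls of IGFBP3 (0.0147 to 0.0288) and PAPPA (0.0153 to 0.0639) were lost with any library left out, which left 3 members called in each of these fits.

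Of 19 WNT pathway genes, 6 rose and 2 fell (42.1% called), but only 1 call remained without primary replicate a, immortalized replicate a or immortalized replicate b, and 2 without primary replicate b. SFRP1, a secreted WNT antagonist, rose from 76.96 and 56.6 to 454 and 426 TPM (2.73). The transcription factors LEF1 and TCF7L2 rose from 1.71 and 1.65 to 8.98 and 6.96 TPM (1.95) and from 5.61 and 6.43 to 18.8 and 17.2 TPM (1.505). FZD6, a receptor, rose from 27.6 and 27.3 to 59.3 and 58.7 TPM (1.09), the receptor FZD8 fell from 2.68 and 2.07 to 0.651 and 0.502 TPM (-1.41), and the ligand WNT2 fell from 1.32 and 1.099 TPM to 0.0374 TPM in immortalized replicate b and a listed 0 in replicate a. With 1 library left out, the adjusted p was 0.0146 to 0.0288 for SFRP1, 0.0138 to 0.0307 for LEF1, 0.009295 to 0.0178 for TCF7L2 (called without primary replicate b), 0.0102 to 0.0282 for FZD8 and 0.0194 to 0.0324 for WNT2.

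Among 27 integrins, cadherins and other adhesion genes, 4 fell and 3 rose (25.9% called, against 9.23% of all genes). MCAM (CD146) fell from 11.9 and 12.99 to 0.604 and 0.708 TPM (-3.49, adjusted p = 9.50e-08). ITGA6, an integrin chain that binds laminin, fell from 287 and 293 to 70.4 and 61.1 TPM (-2.14), next to ITGA8. The rises were smaller. ITGA7, also a laminin receptor chain, was at 1.28 and 2.48 TPM and then 6.17 and 6.81 TPM (1.600), ITGB3 at 10.4 and 8.62 TPM and then 26.2 and 25.7 TPM (1.41), and PCDH18 at 22.7 and 23.6 TPM and then 65.8 and 63.1 TPM (1.46). ITGB3 (0.0206 to 0.0426) and PCDH18 (0.0437 to 0.0563) were called in none of the fits with 1 library left out, ITGA7 only without primary replicate b (0.00155 to 0.0173), and the list had 3 calls without primary or immortalized replicate a and 4 without primary or immortalized replicate b.

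Cells at low oxygen stabilize the HIF transcription factors, and both lines compared here were at 3% oxygen. Of 34 tested hypoxia markers 3 rose and 4 fell (20.6% called), with a median of -0.04. CA9, the carbonic anhydrase induced by HIF1, rose from 3.401 and 1.29 to 82.8 and 75.9 TPM (4.92, standard error 0.48, adjusted p = 2.79e-05). NDRG1 rose from 61.8 and 42.2 to 189 and 169 TPM (1.799) and MXI1, a MYC antagonist, from 7.22 and 7.43 to 19.98 and 19.4 TPM (1.37). ANGPTL4, a lipoprotein lipase inhibitor, fell from 34.9 and 13.3 to 3.15 and 0.941 TPM (-3.27). ENO2 fell from 50.3 and 46.6 to 22.1 and 22.4 TPM (-1.104), beside LOX and IGFBP3. VEGFA, SLC2A1 and HIF1A were not called, with log2 fold changes of 0.65, -0.04 and -0.31. The NDRG1 call was lost without primary replicate b or immortalized replicate a (0.00285 to 0.0135), and that of ANGPTL4 without primary replicate a or immortalized replicate b (0.00144 to 0.0144). Of 22 glycolytic genes 9.09% were called, close to the 9.23% of all genes. ENO2 and PFKP fell, the latter from 235 and 251 to 106 and 112 TPM (-1.15), and none rose.

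Of 25 antioxidant and aldo-keto reductase genes 2 rose (8% called, against 9.23% of all genes). NQO1, a quinone reductase and NRF2 target, rose from 237 and 311 to 646 and 646 TPM (1.25), and SLC7A11, the cystine transporter, from 4.44 and 6.92 to 27.1 and 23.1 TPM (2.07). The latter was called only without primary replicate b when a library was left out (0.00654 to 0.0244), and the list then had 3 calls against 1 without each other library. HMOX1 was at 65.5 and 54.7 TPM and then 20.8 and 18.9 TPM (adjusted p = 0.0564). The aldo-keto reductases AKR1C1, AKR1C2 and AKR1C3 are near-identical and their values are uncertain. In cholesterol synthesis 19 of 23 genes were lower, while 55.8% of the tested genes outside chromosome 10 were lower. Of the 23 genes, 2 fell and 1 rose (13% called, against 9.23% of all genes). IDI1 fell from 69.1 and 64.9 to 30.6 and 29.1 TPM (-1.15) and EBP from 49.2 and 52.8 to 25.99 and 23.2 TPM (-1.04), while INSIG1, the brake on sterol synthesis, rose from 21.3 and 21.9 to 48.4 and 49.3 TPM (1.16). IDI1 was not called with any library left out (0.0147 to 0.0217), and EBP dropped under the fold threshold without primary replicate b or immortalized replicate b (log2 fold change -1.12 to -0.96) and under both other scalings. The list had 1 call without primary replicate b or immortalized replicate b.

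HOX and other positional genes record the body site from which fibroblasts came. Of 33 tested ones 1 rose and 4 fell (15.2% called, against 9.23% of all genes), with a median of 0.01. HOXD8 rose from 0.363 and 0.2401 to 6.58 and 7.23 TPM (3.21). ISL1 fell from 3.04 and 4.06 to 1.03 and 0.702 TPM (-1.57), HOXB2 from 1.04 and 1.17 to 0.0257 and 0.131 TPM (-1.47) and SHOX from 7.96 and 7.904 to 3.69 and 3.23 TPM (-1.09). The SHOX call was lost without primary replicate a and without either immortalized replicate. LHX9 was at 5.63 and 75.3 TPM in the 2 primary libraries, a wide spread, and at 1.304 and 1.13 TPM after the step (-3.65, adjusted p = 0.00927). Leaving out primary replicate b, the high library, brought the log2 fold change of LHX9 to -1.84 and ended the call, as did leaving out either immortalized library. HOXB2 was not called with any library left out (0.01295 to 0.0289), and the list had 3 calls without primary replicate a or b and 2 without immortalized replicate a or b. Among 13 keratins (23.1% called), KRT7 and KRT19 fell. KRT8 and KRT18, also of simple epithelia, did not, at 1.02 (adjusted p = 0.0602) and 0.68 (adjusted p = 0.00278). KRT16, a keratin of stressed epidermis, rose from 0.176 and 0.124 to 1.77 and 2.14 TPM (1.92). Of the 5 tested members of the keratinocyte list (40% called), SFN fell from 1.89 and 1.15 to 0.174 and 0.161 TPM. EPCAM fell from 1.44 and 0.654 to 0.0493 and 0 TPM. The call of EPCAM was lost without immortalized replicate a (log2 fold change -1.58) or b (-1.45). CDH1, DSP and KRT10 were not called, and in this list 2 members were higher and 3 lower.

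**Figure D2:**
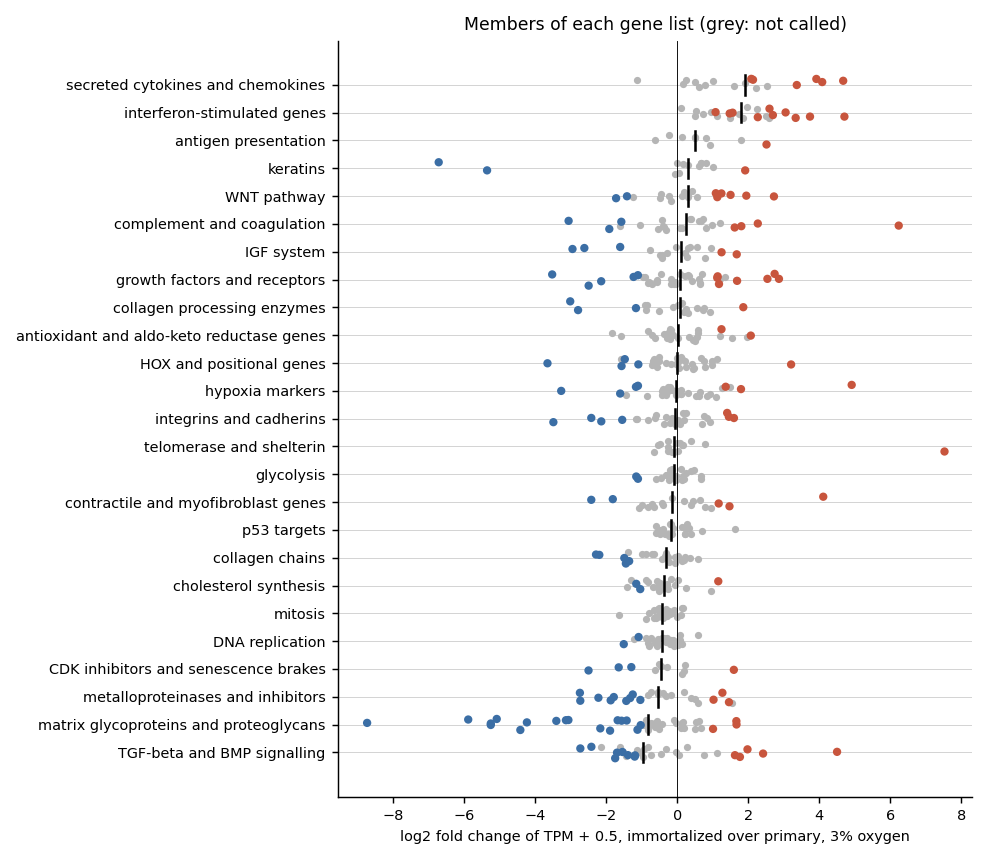
Log2 fold change (immortalized over primary, 3% oxygen, TPM + 0.5) of each tested member of the 25 gene lists, ordered by the list median, drawn as a black bar, with rises in red, falls in blue and genes not called in grey. Cytokines and interferon-stimulated genes lie furthest right with medians of 1.90 and 1.80, and matrix glycoproteins and the TGF-beta list furthest left with -0.81 and -0.95.

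The same step at atmospheric oxygen, measured in libraries not shared with the comparison at 3%, gave 1517 calls among 12388 genes (12.2%), 741 higher and 776 lower. Of these, 674 were called in the same direction at 3% oxygen, 303 higher and 371 lower, which is 59.8% of the calls at 3% and 44.4% of those at atmospheric oxygen. A further 6 genes were called in opposite directions. Across the 11974 genes tested at both levels, Spearman's rho between the log2 fold changes was 0.62, given as a description since genes are not independent. ELN also fell at atmospheric oxygen, with 238 and 295 TPM in primary and 0.184 and 0.306 TPM in immortalized libraries at atmospheric oxygen (log2 fold change -8.48). CDKN2A was higher in primary cells there, at 8.296 and 4.89 TPM, and at 0.132 and 0 TPM in immortalized cells.

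The difference of the step between the 2 oxygen levels was tested as an interaction and was called for 235 of 12632 genes (1.86%), 101 positive and 134 negative. With any 1 of the 8 libraries left out, between 74 (without immortalized replicate b at 3% oxygen) and 132 differences (without primary replicate a at atmospheric oxygen) were called. A negative value means a more negative or less positive step at 3% oxygen. Inflammatory genes were among the largest negative differences. CXCL8 went from 2.25 and 1.19 to 3653 and 2324 TPM at atmospheric oxygen, against 11.9 and 4.97 to 98.02 and 73.3 TPM at 3%. CXCL2 and CXCL3, related chemokines, rose only at atmospheric oxygen by these thresholds, from 0.248 and 0.1604 to 41.6 and 33.3 TPM and from 0.291 and 0.188 to 42.3 and 35.1 TPM, whereas at 3% oxygen they were at 1.08 and 0.597 and 2.396 and 1.52 TPM before and 1.402 and 1.6004 and 2.12 and 2.35 TPM after the step. IL6 was at 8.08 and 9.101 TPM and then 2146 and 1339 TPM at atmospheric oxygen, but its difference of -3.46 had an adjusted p of 0.0623, and those of IL1B (-3.47, 0.0698) and IL24 (-3.21, 0.0124) also missed the threshold. Of the 17 members of the cytokine list tested at 3% oxygen, 15 rose at atmospheric oxygen against 6 at 3%. The difference was called for 4 of the 24 members tested for it, all negative, against 1.86% of all genes. This count was lower in every fit with 1 of the 8 libraries left out. With 1 of the 8 libraries left out, the differences of CXCL2 and CXCL3 were lost in 8 of 8 fits (adjusted p up to 0.0199 and 0.0271), and that of CXCL8 in 7 (up to 0.0199), being called only without primary replicate b at 3% oxygen.

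The step turned direction for MMP3, IL13RA2 and FHL1, but not for PGA4. MMP3 rose at atmospheric oxygen, from 238 and 264 to 1972 and 1255 TPM, where it fell at 3%. IL13RA2, a decoy receptor of IL-13, was at 1.39 and 1.66 TPM and then 30.8 and 18.2 TPM at atmospheric oxygen, against 7.95 and 7.38 TPM and then 0.955 and 1.11 TPM at 3%. FHL1, a LIM-domain protein of muscle, fell from 634 and 612 to 187 and 200.3 TPM at atmospheric oxygen and rose from 67.6 and 83.6 to 229.9 and 245 TPM at 3%, so that the immortalized levels were alike while the primary levels differed. PGA4, a pepsinogen with near-identical copies that the values cannot separate, was listed at 0 in all 4 primary libraries and was at 22.5 and 33.9 TPM after the step at atmospheric and 0.106 and 0.763 TPM at 3% oxygen.

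Among positive differences, C5orf46 rose at 3% from 1.499 and 2.58 to 52.8 and 58.97 TPM and was at 0.7396 and 0.531 TPM and then 1.099 and 1.39 TPM at atmospheric oxygen. PTPRQ was at 1.31 and 0.922 TPM and then 18.4 and 13.5 TPM at 3%, and at 2.99 and 2.61 TPM and then 1.99 and 2.098 TPM at atmospheric oxygen. KRTAP1-5, a hair keratin-associated protein, was at 1.86 and 0.924 TPM and then 12.3 and 13.8 TPM at 3%, against 14.6 and 19.04 TPM and then 7.08 and 11.5 TPM. PLAC8 was at 5.86 and 8.66 TPM and then 5.54 and 4.37 TPM at 3%, and fell from 16.9 and 20.3 to 1.16 and 0.6695 TPM at atmospheric oxygen. IGF2 fell at both levels, but further at atmospheric oxygen, from 89.3 and 93.1 to 0.752 and 1.45 TPM. With 1 of the 8 libraries left out, the difference was lost in 8 fits for PLAC8, in 6 for C5orf46 and in 1 for PTPRQ.

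In cholesterol synthesis, at atmospheric oxygen 10 of its 23 members rose and none fell, with a median of 1.005, against 1 rise and 2 falls with a median of -0.38 at 3% oxygen. The difference was called for 10 members, all negative (the background is 1.86%), and for 3 to 5 members with 1 of the 8 libraries left out. DHCR7, of the last step of cholesterol synthesis, was at 18.2 and 21.7 TPM and then 103 and 107 TPM at atmospheric oxygen and at 52.04 and 53.2 TPM and then 31.6 and 41.99 TPM at 3% (difference -2.89, adjusted p = 0.000366). This gene was chosen after its values were seen.

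**Figure D3:**
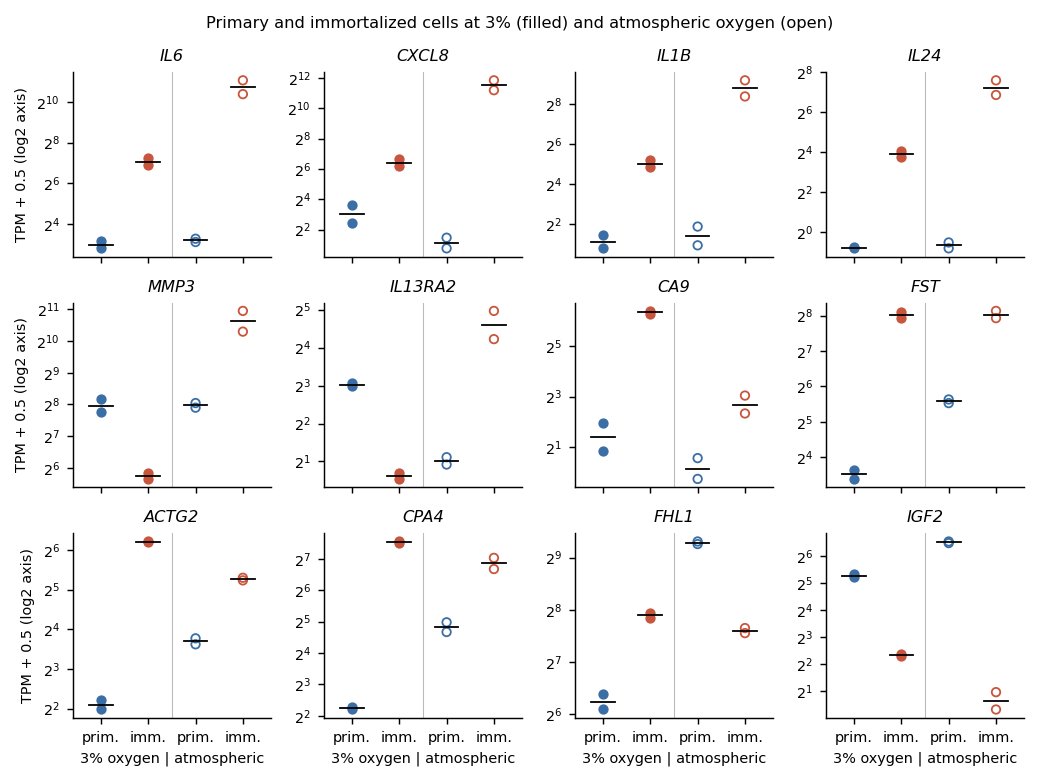
TPM + 0.5 on log2 axes for 12 genes in primary (blue) and immortalized (red) libraries at 3% oxygen (filled) and atmospheric oxygen (open), with 1 point per library and the mean on the log2 scale as a bar. IL6, CXCL8, IL1B and IL24 were higher after the step at both oxygen levels, and their immortalized libraries were higher at atmospheric than at 3% oxygen, MMP3, IL13RA2 and FHL1 changed direction, and CA9 was highest in immortalized cells at 3% oxygen.

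At the level of transcripts, 9142 genes had at least 5 TPM in both groups at 3% oxygen. In 229 of them (2.50%) the most abundant transcript was the same in the 2 replicates of each line and differed between the lines. For comparison, the most abundant transcript differed between the 2 primary replicates in 1173 genes and between the 2 immortalized replicates in 936 genes. The largest switch was in IFIT3, where IFIT3-202 took 94.8% and 92.4% of the gene's TPM in primary and 45.1% and 43.9% in immortalized libraries, and IFIT3-201 the remainder. In KRT7 the coding transcript KRT7-201 took 74.9% and 63.3% before and 6.17% and 2.23% after the step, when KRT7-212, without a defined coding sequence, took 42.8% and 59.8% of the much lower total. In SCG5 a retained-intron transcript took 10.4% and 4.07% before and 74.98% and 59.8% after, and in DHRS4L2 the transcript DHRS4L2-202 took 18.2% and 34.4% before and 65.7% and 70.1% after. Transcript shares carry no test.

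Position along the genome was examined after the median change of each chromosome had been seen. Chromosome 10 stood apart: 88 of its 466 tested genes were called (18.9%), 38 higher and 50 lower, against 5.95% to 12.1% called on the other chromosomes. In the first 40 Mb of chromosome 10 (GRCh37), 100 of 106 tested genes were lower, 38 fell and none rose, with a median log2 fold change of -0.82 (quartiles -1.15 and -0.41). In the rest of the chromosome 286 of 360 genes were higher, 38 rose and 12 fell, with a median of 0.43 (quartiles 0.09 and 0.69). The median over all other chromosomes was -0.07 (quartiles -0.42 and 0.26). The same 2 stretches had medians of -0.72 and 0.40 in the libraries at atmospheric oxygen. Over the 230 windows of 10 Mb with at least 20 tested genes, those outside chromosome 10 had medians between -0.43 (chromosome 9) and 0.35 (chromosome 7). The number of copies of chromosome 10 was not measured, and the windows carry no test. Of the called genes named with their groups, FZD8, IDI1, ITGA8, MCM10 and PFKP, which all fell, lie in the first stretch. In the second lie IFIT1, IFIT3, LOXL4, MXI1, PLAU and TCF7L2, which rose, and ADAM12, which fell.

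**Figure D4:**
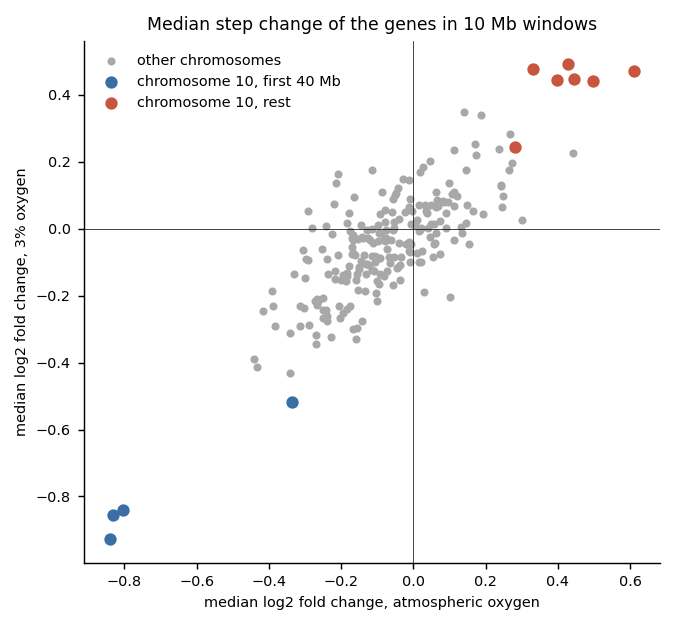
Median log2 fold change of the tested genes in each 10 Mb window with at least 20 genes, at atmospheric oxygen (horizontal) and at 3% oxygen (vertical), with other chromosomes in grey, the first 40 Mb of chromosome 10 in blue and the rest of it in red. The blue windows lie at -0.52 to -0.93 and the red windows at 0.24 to 0.49 on the vertical axis.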

How the data were processed

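RNA of duplicate cultures of 4 BJ-derived lines at 2 oxygen levels was sequenced as stranded poly-A libraries (16 samples). Per the labels and the study's methods, the authors quantified reads against transcripts with kallisto 0.42.1 and deposited TPM per transcript. TPM hold no read counts, so no count test was run and no counting interval is given. Groups came from the labels of the samples.

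Transcript TPM were summed per gene after matching transcripts to GENCODE annotation of GRCh37, which covered 89.3% to 90.1% of the TPM in the 4 libraries at the centre of the report. Unmatched transcripts were left out. Protein-coding genes that reached a group mean of 1 TPM were tested on log2(TPM + 0.5) with limma 3.58.1 in R 4.3.3, with an intensity trend and 1 spread shared by all 16 libraries (8 residual degrees of freedom). Calls needed an adjusted p under 0.01 and a log2 fold change beyond 1. The test was checked on simulated data. There 166 of 200 genes changed by 2 on the log2 scale were found, and 0 unchanged genes were called among 12103 genes. The simulated noise was independent between libraries and alike in all groups, and the lowest genes were not among those changed. The check does not cover correlated replicates, groups of unlike spread or changes in genes near the floor. Other computations used Python 3.11.15 with pandas 2.3.3.

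Named genes were TERT, the 10 largest called rises and the 10 largest called falls. The largest rises and falls needed at least 5 TPM in the higher group and no overlap between the groups. Also named were up to 3 rises and 3 falls per list, and the 5 largest positive and 5 largest negative differences between oxygen levels. Cell type markers and genes of the largest transcript switches completed the set. The rule for list members also selects 1 gene that is not reported here. Other members of the lists were named after their values were seen. The comparison, the lists and the tests were chosen with earlier results of these data known. Alternatives were another pseudocount, filter, scaling, spread, threshold and gene set, the replicate letter as a block, and each library left out. A fit without metastasizing cells at 3% oxygen, whose duplicates differed most, was added after the data were seen.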

Additional observations from a re-analysis of the deposited data

Results flagged for a closer look

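For 27 named genes the step from primary to immortalized cells differed between 3% and atmospheric oxygen in limma's interaction test (adjusted p below 0.01 over 12632 genes). Values are the log2 fold change at 3% oxygen minus that at atmospheric oxygen, each from 2 libraries per group, and no cause was tested.

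Among secreted and immune genes the difference was -7.03 for CXCL8 (standard error 1.06), -5.55 for CXCL3, -5.14 for CXCL2 and -5.99 for the decoy receptor IL13RA2 (adjusted p = 2.81e-05). It was -4.86 for MMP3, -4.11 for the protease inhibitor TFPI2 and -5.01 for the pepsinogen PGA4, whose near-identical copies cannot be separated. OPCML, with -4.37, was at 21.5 and 25.1 TPM in primary cells at 3% oxygen and 0.506 and 1.09 TPM at atmospheric oxygen. TGFA had -2.40 and TEK -2.15.

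Metabolic genes with a negative difference were INSIG1 (-1.86), ENO2 (-1.46) and EBP (-1.02). ENO2, the neuronal enolase, went from 11.3 and 11.5 to 15.2 and 14.4 TPM at atmospheric oxygen and from 50.3 and 46.6 to 22.1 and 22.4 TPM at 3%. NQO1 had a positive difference of 1.39, with 595 and 571 TPM and then 521 and 537 TPM at atmospheric oxygen.

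Positive differences were 3.89 for C5orf46, 3.74 for KRTAP1-5, 3.72 for PTPRQ, 3.33 for FHL1 (adjusted p = 2.81e-05) and 3.28 for PLAC8. CPA4 had 3.25, at 24.9 and 31.000 TPM and then 102 and 130.3 TPM at atmospheric oxygen. ALDH1A1, with 2.97, was at 468 and 392 TPM in primary cells at atmospheric oxygen, higher than at 3%. IGF2 had 2.93, ACTG2 2.55, FST 2.06, KRT16 1.98, EFEMP1 1.83 and MCAM 1.26.

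Of the 27, 11 remained called in every alternative run for them. With 1 of the 8 libraries left out, the difference was lost in 8 of 8 fits for CXCL2, CXCL3, EBP, FST, KRT16, MCAM and PLAC8 (adjusted p of 0.0104 to 0.0484). It was lost in 7 fits for CXCL8 and NQO1, in each case kept only without primary replicate b at 3% oxygen. C5orf46 and TGFA lost it in 6 fits, EFEMP1 in 4, and INSIG1 (0.0101) and PTPRQ (0.0114) in the fit without immortalized replicate a at 3% oxygen. The other 13 kept it in each of these fits. Groups of 2 libraries are too small for a test of outlying samples.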

How the results depend on the processing

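The step at 3% oxygen gave 1128 calls, and between 798 (filter of 5 TPM) and 1445 (adjusted p under 0.05) under the alternatives that kept all libraries of the step. With 1 library left out the range was 738 to 841. The count of differences between oxygen levels moved more, from 235 to 377 in the fit of only the groups compared, to 484 without metastasizing cells at 3% oxygen (added after the data were seen) and to 565 at an adjusted p under 0.05, and to between 74 and 132 with 1 library left out.

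The letters a and b are not stated to pair samples. Replicates with the same letter had correlated deviations (r = 0.167 at 3% and 0.259 at atmospheric oxygen over genes), and a replicate block gave 1093 step calls, 490 higher and 603 lower, and 179 differences. Among named genes, the block lost the differences of EBP, FST, KRT16, MCAM, NQO1 and PLAC8 (adjusted p of 0.0106 to 0.0142).

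Of 112 named genes called in the step, 68 kept the call in every alternative and 72 with each library left out. The sign changed for 7 named genes, none of them called: COL1A2 (-0.10 under quantile normalization, -0.042 to 0.11 with 1 library left out), LUM (-0.12 under quantile normalization), CXCL3 (-0.085 to 0.44 with 1 library left out), THY1 (-0.029 to 0.045), PMEL (-0.26 to 0.40), GFAP (-0.63 to 0.77) and MAP2 (-0.30 to 0.22, and 0.014 with median-ratio rescaling and 0.055 under quantile normalization). The cause was not tested. Without read counts, the depth that limits low genes is unknown.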

Other observations

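Among genes that do not code for protein, tested together with the protein-coding genes, 9 of 265 long noncoding RNAs rose and 11 fell. Of the protein-coding genes tested alone, 4.19% rose and 5.04% fell. ENSG00000291105, on chromosome 16 from 56651335 to 56652744 (GRCh37), was at 366 and 192 TPM in primary libraries and listed at 0 in both immortalized libraries at 3% oxygen. At atmospheric oxygen it was at 55.1 and 74.6 TPM in primary and at 0.347 and 0 TPM in immortalized cells. LSP1P5 fell from 51.0 and 52.2 TPM to 19.5 and 17.9 TPM, and SBDSP1 from 123 and 137 TPM to 62.4 TPM in both libraries. DIRC3 rose from 2.70 and 3.16 TPM to 8.09 and 8.06 TPM, and LINC01119 from 4.59 and 5.26 TPM to 9.59 and 11.9 TPM. These genes were chosen after their values were seen.

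Of the 235 called differences between oxygen levels, 209 were in genes tested in the step at both oxygen levels. In 143 of these the step was smaller in size at 3% than at atmospheric oxygen and in 66 larger. Size was compared without regard to direction, so genes whose step turned, such as MMP3, IL13RA2 and FHL1, are among them. The split therefore does not describe a weaker step in the same direction.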
